A study of Saccharomyces cerevisiae with 50 samples.

Results

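RPL22A and RPL22B are the paralogous budding yeast genes for the ribosomal protein Rpl22 (eL22), and their levels are described here strain by strain in 25 Saccharomyces cerevisiae samples from a study of ribosome deficiency. The rows of both deposited tables named RPL22A (YLR061W, chromosome XII, coding length 366 nt) and RPL22B (YFL034C-A, chromosome VI, coding length 369 nt) were taken, which are 2 of 6679 open reading frames. They were chosen by their footprint and mRNA levels over these same strains, so their levels and class differences are descriptions and carry no test.

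Rpl22 sits on the surface of the large (60S) ribosomal subunit. RPL22A is the major copy and RPL22B the minor one, and each carries an intron. Rpl22 protein is known in budding yeast to bind the intron of RPL22B transcripts and to lower their splicing, an example of a ribosomal protein that acts on its own paralog's RNA. The deposited levels are sums over coding sequence, in which spliced and unspliced RNA cannot be told apart.

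All strains were of the SK1 background and grew exponentially at 30 °C in rich medium, which held 2% glucose, up to an optical density (OD600) of 0.6. Each strain gave 1 ribosome footprint library (fragments protected by ribosomes) and 1 mRNA library from total RNA, 50 libraries in all. The RPS class of 9 strains carried mutations in genes of the small (40S) subunit. It held rps0b, rps25b, rps28a, rps28b, rps29b, 2 strains labelled rps22a (strain numbers 4659 and 4662v), the double mutant rps25a rps25b and the double heterozygote rps22a/+ rps22b/+. The RPL class of 14 strains carried mutations in genes of the 60S subunit. It held rpl7a, rpl24a, rpl24b, rpl26a, rpl26b, rpl38, rpl40a, rpl40b, rpl41a, rpl41b, the double mutant rpl26a rpl26b and the double heterozygotes rpl7a/+ rpl7b/+, rpl26a/+ rpl26b/+ and rpl40a/+ rpl40b/+. The wild type was sampled 2 times under 1 strain number (WT1 and WT2). Apart from rps22a, each mutant genotype was 1 strain, so no spread within a genotype is known. No strain carried a mutation of RPL22A or RPL22B.

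Whole reads were recovered from the deposited values, and levels are given as RPKM, reads per kilobase of coding sequence per 1000000 reads assigned to genes. They are shares of a library, so a change in the total RNA or in the number of ribosomes per cell cannot be seen in them. Totals were 4.11 to 8.61 M reads (M, 1000000 reads) in footprint libraries and 0.964 to 3.52 M in mRNA libraries, and median mRNA totals were 1.24 M in RPS strains, 2.01 M in RPL strains and 1.45 M in wild type. The mutated genes' own reads went with the label in 38 of 40 values of homozygous mutants, each under 5% of the median of strains with that family intact. The footprint libraries of rpl41a and rpl41b are not among the 40, since RPL41 gave no footprint level to compare with. Their labels were checked in mRNA only, where the mutated gene had 0 reads in each. In rps22a (4662v), RPS22A stood at 93.6% in mRNA and 111% in footprints. In the footprint library labelled rpl26a/+ rpl26b/+, RPL26A stood at 99.8% and RPL26B at 100.5%, while RPS0A was at 1.0%, but the mRNA library of that strain had RPL26A at 53.2% and RPL26B at 51.1%. In rpl40a/+ rpl40b/+, RPL40A was at 95.9% in mRNA and 79.2% in footprints, while RPL40B was at 55.1% and 45.3%. Class values are therefore given with and without these 3 strains, in which at least 1 mutated gene stood near its usual level. In the other double heterozygotes the mRNA of RPL7A was at 66.7% and its footprints at 65.4%, those of RPS22A at 56.3% and 55.7%, those of RPL7B at 422% and 394% and those of RPS22B at 214% and 257%. Both strains were kept throughout.

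RPL22B footprints were the part of the pair that differed widely between strains. They spanned 8.34 to 420 RPKM, a 50.4-fold range (95% counting interval 29.9 to 92.5), while RPL22B mRNA spanned 86.9 to 282 RPKM, a 3.25-fold range. RPL22A stayed within 1.46-fold in footprints and 1.40-fold in mRNA. Counting intervals, here and below, cover counting error only.

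**Figure D1:**
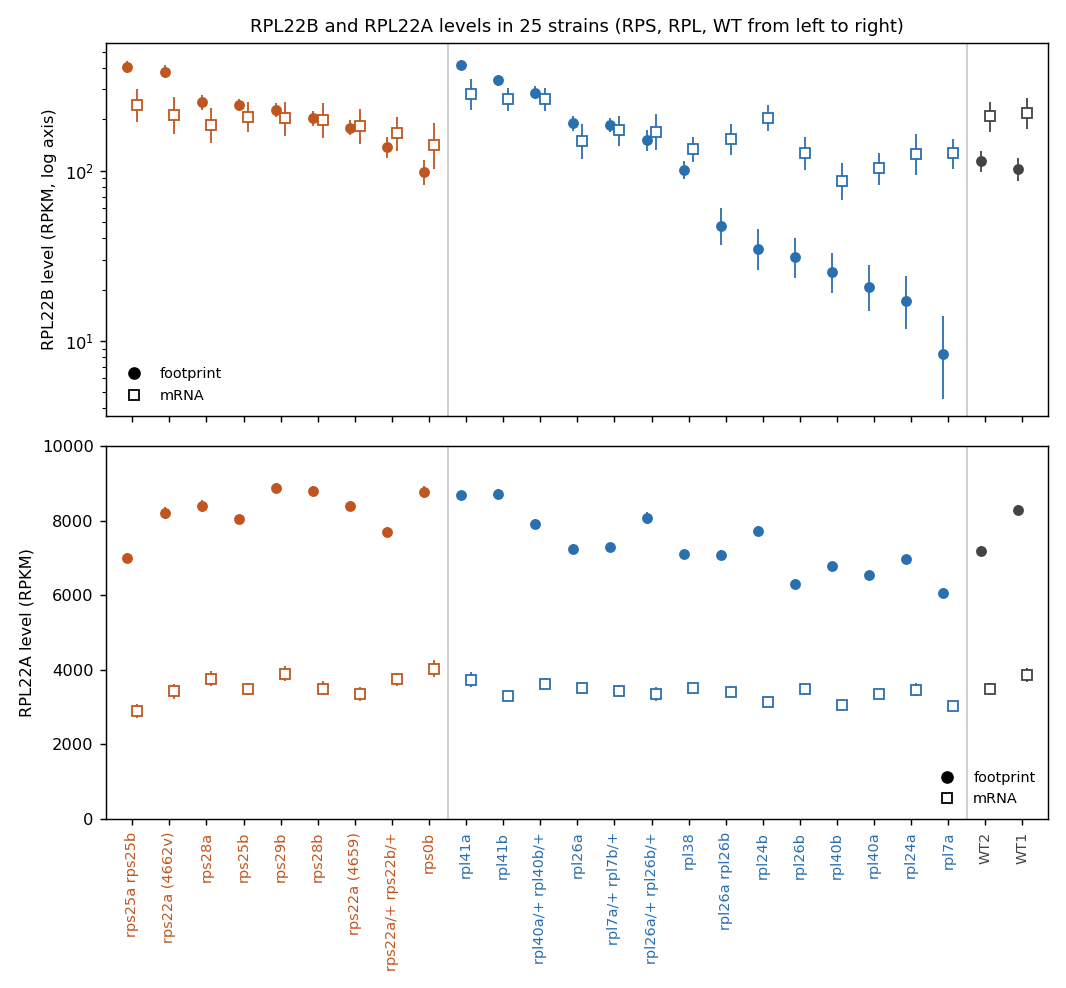
Levels of RPL22B (top, log axis) and RPL22A (bottom, linear axis from 0) in RPKM in each of 25 strains, RPS strains in orange, RPL strains in blue and wild type in grey, ordered within a class by RPL22B footprints. Filled circles are footprints, open squares mRNA, and bars 95% counting intervals. In 7 RPL strains RPL22B footprints lie at 8.34 to 47.1 RPKM, below every other strain, while RPL22B mRNA and both RPL22A levels vary far less.

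In the RPS strains, RPL22B footprints were 407 RPKM in rps25a rps25b, 382 in rps22a (4662v), 252 in rps28a, 244 in rps25b and 228 in rps29b. They were 203 RPKM in rps28b, 179 in rps22a (4659), 138 in rps22a/+ rps22b/+ and 97.6 in rps0b. The wild-type samples had 102 RPKM in WT1 and 113 in WT2. Of the 9 RPS strains, 8 lay above both wild-type samples, 5 of them at more than double the wild-type mean, and rps0b alone lay just below both. Both strains labelled rps22a lay above the wild type, but they differed from each other by more than their counting intervals. These ran from 349 to 418 RPKM in 4662v and from 162 to 198 RPKM in 4659. In 4662v, however, RPS22A itself stood at 111% of its usual level in footprints and 93.6% in mRNA. In 4659 it stood at 0.672% and 3.06%. The difference between these strains therefore cannot be read as spread within a genotype.

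In the RPL strains the same measure split in 2 directions. Footprints of RPL22B were 8.34 RPKM in rpl7a, 17.1 in rpl24a, 20.7 in rpl40a, 25.3 in rpl40b, 30.9 in rpl26b, 34.7 in rpl24b and 47.1 in rpl26a rpl26b. They were 100.4 RPKM in rpl38, 151 in rpl26a/+ rpl26b/+, 185 in rpl7a/+ rpl7b/+, 189 in rpl26a, 287 in rpl40a/+ rpl40b/+, 340 in rpl41b and 420 in rpl41a. The lowest 7 stood at 7.76% to 43.8% of the wild-type mean, rpl38 was near the wild type, and the other 6 lay above both wild-type samples. The value of rpl7a rests on 14 reads (interval 4.56 to 14 RPKM), beside 166 and 212 reads in the wild-type libraries.

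Put in order over all 25 strains, RPL22B footprints had their largest step, 2.07-fold, between rpl26a rpl26b (47.1 RPKM) and rps0b (97.6 RPKM), and counting intervals did not meet there. The step from rpl7a to rpl24a was almost as large at 2.05-fold, but with 14 and 33 reads the intervals overlapped. Of the 24 steps between neighbours in this order, 22 had overlapping intervals, and the other step without overlap lay between rpl40a/+ rpl40b/+ and rpl41b. Strains further apart in the order did part within the low strains, where rpl7a (interval 4.56 to 14 RPKM) lay below rpl40b (19.0 to 32.9), and within the rest, where rps0b (82.2 to 115) lay below rpl41a (393 to 449). The same 7 strains were lowest when libraries were scaled by median of ratios, by totals without ribosomal protein genes, or taken as deposited.

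The direction differed within families of mutants as well as between classes. The A and B mutants of RPL24 were both low (17.1 RPKM in rpl24a and 34.7 in rpl24b), as were those of RPL40 (20.7 in rpl40a and 25.3 in rpl40b), and those of RPL41 were both high (420 in rpl41a and 340 in rpl41b). The RPL26 mutants parted, with 189 RPKM in rpl26a against 30.9 in rpl26b and 47.1 in rpl26a rpl26b. Each double heterozygote of the RPL class lay above the wild type, although homozygous mutants of the same families were among the lowest. In the RPL7 family this gave 185 RPKM in rpl7a/+ rpl7b/+ beside 8.34 in rpl7a, and in the RPL40 family 287 in rpl40a/+ rpl40b/+ beside 20.7 and 25.3. The footprint library of rpl26a/+ rpl26b/+ went against its label for both mutated genes, and that of rpl40a/+ rpl40b/+ had RPL40A, but not RPL40B, at 79.2% of its usual level.

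The share that the mutated gene held in its family was set beside these levels. In wild-type mRNA, RPL7A made up 93.7% of the RPL7 pair, RPL26B 63.9% of RPL26, RPL40A 59.6% of RPL40 and RPL24A 57.7% of RPL24. Among single mutants of the low group this share ran from 40.4% (rpl40b) to 93.7% (rpl7a). Among the RPL strains outside it, it was 36.1% in rpl26a, 41.8% in rpl41a, 58.2% in rpl41b and 100% in rpl38, a gene with no paralog, so the groups overlapped. The footprints left in the mutated family were set beside them as well. In the low group they ran from 1.13% of wild type (rpl26a rpl26b) to 63.9% (rpl24b). In the other RPL strains they were 1.24% in rpl38, 62.6% in rpl40a/+ rpl40b/+, 66.1% in rpl26a and 86.4% in rpl7a/+ rpl7b/+. They were 99.0% in rpl26a/+ rpl26b/+, whose footprint library went against its label, and RPL41 gave no footprint value. Apart from rpl38 and rpl40a/+ rpl40b/+, these lay above the low group in footprints. In mRNA the low group had 1.30% (rpl26a rpl26b) to 65.2% (rpl7a) left. Within that range lay rpl41b (28.2%) and rpl26a/+ rpl26b/+ (51.0%), and rpl38 (0.207%) lay below it. Above it were rpl26a (66.3%), rpl40a/+ rpl40b/+ (79.2%), rpl7a/+ rpl7b/+ (94.0%) and rpl41a (116%). Whether what was left of a family is tied to RPL22B was not tested. RPL22B footprints were at 43.8% in rpl26a rpl26b and 93.4% in rpl38. They were at 379% in rps25a rps25b, a 40S mutant with 0.44% of its RPS25 footprints left.

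**Figure D2:**
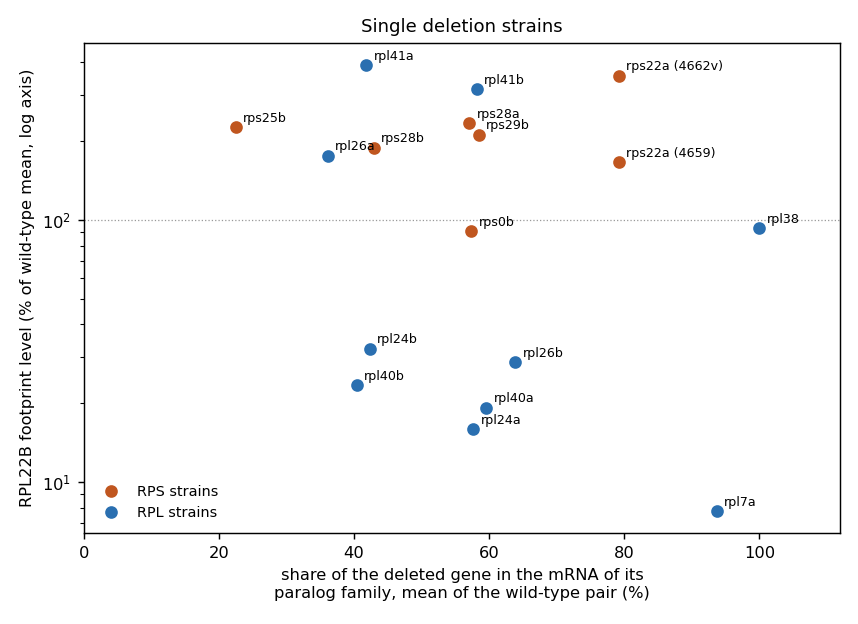
RPL22B footprint level as a percentage of the wild-type mean (log axis) against the share of the mutated gene in its family's mRNA in wild type, for the 17 single mutants, RPS in orange and RPL in blue. Low RPL strains reach from 40.4% to 93.7% on the horizontal axis, and in that span rpl41a, rpl41b and the RPS strains other than rps0b (90.8%) lie above 100%. The point of rps22a (4662v), at 79.2% and 355%, is of a strain that went against its label. Its RPS22A stood at 93.6% in mRNA and 111% in footprints.

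RPL22B mRNA had a similar order of strains over a much narrower range. In RPS strains it was 243 RPKM in rps25a rps25b, 213 in rps22a (4662v), 207 in rps25b, 203 in rps29b, 198 in rps28b, 186 in rps28a, 184 in rps22a (4659), 166 in rps22a/+ rps22b/+ and 141 in rps0b. In RPL strains it ran from 86.9 RPKM in rpl40b and 103 in rpl40a over a median of 152 to 282 in rpl41a, against 219 in WT1 and 208 in WT2. Of the RPS strains 7 and of the RPL strains 11 lay below both wild-type samples, among them rps28a, rps29b and rpl26a, in which footprints lay above both. In rpl7a, with the fewest footprints, mRNA was 126 RPKM from 97 reads, 59.0% of the wild-type mean, and in rpl24b it was 205 RPKM, 95.8% of that mean, while footprints were at 32.3%. The 42 to 170 mRNA reads per library left all 24 steps between neighbours within counting error. Strains further apart did part, as rpl40b (interval 66.8 to 111 RPKM) and rpl41a (229 to 345).

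Across the 25 strains, footprint and mRNA levels of RPL22B had a Spearman correlation of 0.81. Footprint levels had a correlation of -0.02 with footprint depth, while mRNA levels were lower at greater mRNA depth (-0.45). The points share the library totals that scale them, and the part of depth in the mRNA values was not tested.

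Most of the difference lay in footprint over mRNA, the ratio of both RPKM values within a strain, which is often used for translational efficiency. For RPL22B it was 1.79 in rps22a (4662v), 1.68 in rps25a rps25b, 1.36 in rps28a, 1.18 in rps25b, 1.12 in rps29b, 1.03 in rps28b, 0.98 in rps22a (4659), 0.83 in rps22a/+ rps22b/+ and 0.69 in rps0b, against 0.46 in WT1 and 0.54 in WT2. All 9 RPS strains thus lay above both wild-type samples. Every RPS strain did so for 193 of 4198 genes tested, 4.6%, so RPL22B shares this with many genes.

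In RPL strains the ratio of RPL22B was 0.07 in rpl7a, 0.14 in rpl24a, 0.17 in rpl24b, 0.20 in rpl40a, 0.24 in rpl26b, 0.29 in rpl40b and 0.31 in rpl26a rpl26b, all below the wild type. It was 0.75 in rpl38, 0.89 in rpl26a/+ rpl26b/+, 1.08 in rpl7a/+ rpl7b/+, 1.10 in rpl40a/+ rpl40b/+, 1.27 in rpl26a, 1.29 in rpl41b and 1.49 in rpl41a, all above it. The value of rpl26a/+ rpl26b/+ sets footprints that went against the label beside mRNA that went with it. Deviations of these 2 libraries correlated at -0.18, so they may not be of 1 strain. The wild-type pair thus stood between the low strains and the rest, and of 23 mutant strains none had a ratio between the 2 wild-type values, although the counting intervals of the nearest strains reached into theirs. For RPL22A the ratio stayed between 1.81 (rpl26b) and 2.65 (rpl41b).

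**Figure D3:**
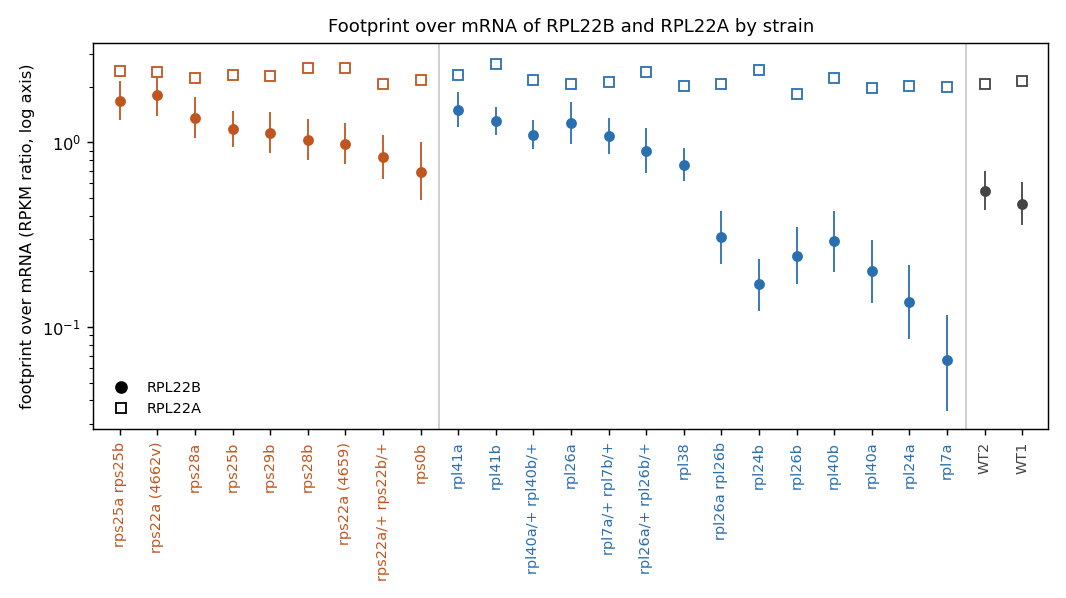
Footprint over mRNA (RPKM ratio, log axis) of RPL22B (filled circles) and RPL22A (open squares) by strain, in the strain order of the plot of levels, with 95% counting intervals. RPL22B runs from 0.07 in rpl7a to 1.79 in rps22a (4662v) with the wild type at 0.46 and 0.54, and RPL22A stays between 1.81 and 2.65 throughout.

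RPL22A, the major copy, supplied nearly all of the pair. In footprints it had 7005 to 8880 RPKM in RPS strains (median 8391), 6067 to 8719 in RPL strains (median 7171) and 8291 and 7195 in wild type. The classes overlapped, and the wild-type samples differed from each other by 1.15-fold, while the whole range over strains was 1.46-fold. The lowest footprint levels of RPL22A were in rpl7a (6067 RPKM), rpl26b (6295), rpl40a (6541), rpl40b (6790) and rpl24a (6964), which were also the 5 lowest for RPL22B. In mRNA, RPL22A had 2889 to 4033 RPKM in RPS strains, 3042 to 3736 in RPL strains and 3850.6 and 3486 in wild type, and all 24 neighbouring steps were within counting error. The highest mRNA level was in rps0b (interval 3807 to 4269 RPKM) and the lowest in rps25a rps25b (2705 to 3082), and these intervals did not meet. Those of WT1 (3664 to 4044) and WT2 (3319 to 3659) did not meet either. The same held in their footprints (8151 to 8432 and 7073 to 7318). Intervals of RPL22A that stay apart therefore need not mark a difference between genotypes.

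RPL22B made up 1.10% (rps0b) to 5.50% (rps25a rps25b) of the footprints of the pair in RPS strains, 0.137% (rpl7a) to 4.62% (rpl41a) in RPL strains and 1.21% and 1.55% in wild type. Its share of the pair's mRNA was 3.38% to 7.76% in RPS strains, 2.77% to 7.40% in RPL strains and 5.38% and 5.63% in wild type. The share was smaller in footprints than in mRNA in every strain, since the footprint over mRNA ratio of RPL22B was below that of RPL22A in each. How reads that match both copies were assigned is not given in the sources used here. In rpl7a the 14 RPL22B reads stood beside 10079 of RPL22A, 0.139% of them, so RPL22A reads assigned to RPL22B were no more than that there. BUD28, a dubious reading frame over RPL22A, was listed at 0 in all 50 libraries.

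By class, RPL22B footprints averaged 237 ± 103 RPKM in RPS strains (SD, n = 9), 133 ± 135 in RPL strains (n = 14) and 107 ± 8.22 in wild type (n = 2). Its mRNA averaged 193 ± 29.2 RPKM in RPS strains, 168 ± 62.1 in RPL strains and 214 ± 7.86 in wild type. On the log2(RPKM + 1) scale, RPS minus RPL was 1.58 ± 0.56 for RPL22B footprints (coefficient and SE of the limma fit), 0.27 ± 0.17 for its mRNA and 1.31 ± 0.44 for footprint over mRNA. For RPL22A the same differences were 0.18 ± 0.06, 0.07 ± 0.05 and 0.10 ± 0.06. The standard deviation of RPL22B footprints in the RPL class exceeded its mean, and the class held both the lowest and the highest strain. Without the 3 strains with a mutated gene near its usual level, RPL22B footprints averaged 219 ± 92.9 RPKM in RPS strains (n = 8) and 118 ± 138 in RPL strains (n = 12), and the log2 difference was 1.73.

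Measured against all genes, the spread of RPL22B was large and that of RPL22A small. The SD of RPL22B footprints over 25 strains was 1.56 on the log2(RPKM + 1) scale, against a median gene at 0.22, and 14 of 4202 genes had a larger one. Of 118 cytosolic ribosomal protein genes outside the mutated families, only RPS9A exceeded it. In footprint over mRNA its SD of 1.25 was the highest of the 118 and the 10th of 4179 genes, and the 9 genes above it had mean footprint levels of 11.9 to 86.2 RPKM, below the 168 of RPL22B. In mRNA its SD of 0.43 ranked 542nd of 5128 genes. The SD of RPL22A was 0.16 in footprints and 0.11 in mRNA, so that 3519 of 4202 and 4854 of 5128 genes varied more.

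**Figure D4:**
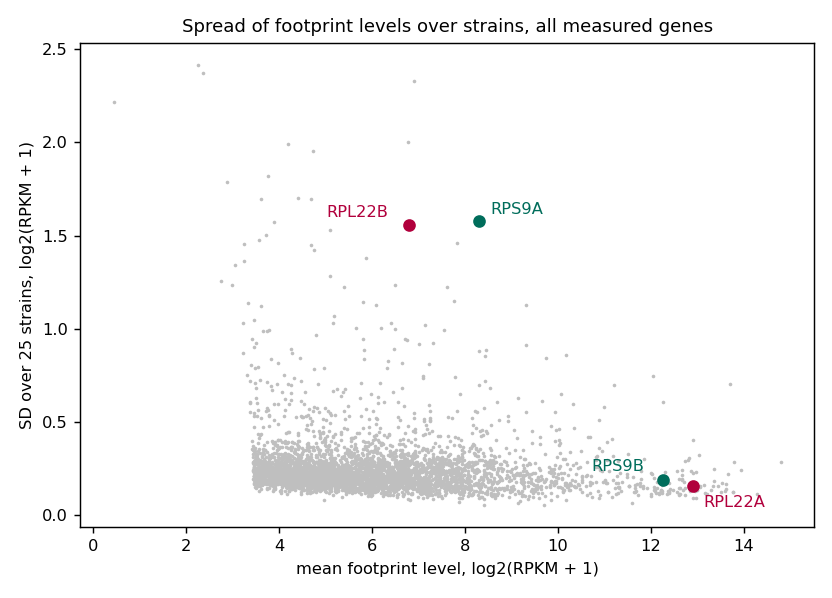
SD over the 25 strains against mean footprint level, both on the log2(RPKM + 1) scale, 1 point per gene for 4202 genes outside the mutated families. RPL22B (SD 1.56) lies below 14 genes, among them RPS9A and, at higher mean levels than its own, SNZ1 (SD 2.33, mean 386 RPKM) and HSP12 (SD 2.00, mean 254 RPKM), while RPL22A (SD 0.16) lies in the bulk.

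Other paralog pairs of ribosomal protein genes were set beside RPL22, leaving out strains mutant for the family. Over 58 pairs the minor copy's highest footprint level exceeded its lowest by a median of 1.58-fold. RPL22B, at 50.4-fold, was second to RPS0A, whose 119.6-fold range rests on the library labelled rpl26a/+ rpl26b/+. RPS9A followed with 20.5-fold, RPS22B with 9.85-fold, and RPL7B had 2.53-fold. The lowest RPS22B level (137 RPKM) came from the same library, and the next lowest was 193 RPKM in rps28b. In mRNA RPS9A led 59 pairs with 25.4-fold, RPS22B had 6.28-fold, and RPL22B was sixth with 3.25-fold. RPS9A, whose product is a 40S protein, went the other way by class median, with footprints at 77.2 RPKM in RPS strains, 642 in RPL strains and 841 and 664 in the wild-type samples. The RPS strains were not alike, with 652 RPKM in rps25b, 366 in rps25a rps25b and 235 in rps22a (4662v). The other RPS strains had 50.1 (rps0b) to 93.0 RPKM (rps28a). The lowest RPL value, 51.9 RPKM, was that of the library labelled rpl26a/+ rpl26b/+.

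In footprints, the genes next to RPL22B varied less than it did. The 5 measured genes on either side, among them ACT1 (actin), TUB2 (beta-tubulin), YPT1 and RPO41, had footprint levels within -0.77 and 0.91 of their own median over strains on the log2 scale, against -4.03 to 1.47 for RPL22B. Their Spearman correlations with RPL22B over the 25 strains ran from -0.89 (TUB2) and -0.73 (MOB2) to 0.53 (HAC1) and 0.55 (CAF16). In mRNA, AGX1 (alanine:glyoxylate aminotransferase) varied more than RPL22B, from -1.66 to 1.66 against -1.07 to 0.62, with a correlation of -0.0046 with it, and CAK1 was the next widest neighbour, from -0.93 to 0.47. The mRNA correlations of the 10 neighbours ran from -0.30 (TUB2) to 0.40 (MIL1). In footprints the median of 81 other genes of chromosome VI stayed within -0.13 and 0.13 in every strain. For RPL22A, which ran from -0.35 to 0.20, the median of 346 genes of chromosome XII stayed within -0.15 and 0.13. Its neighbours ranged more widely, from -1.17 in BMT6 to 0.63 in PER33.

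**Figure D5:**
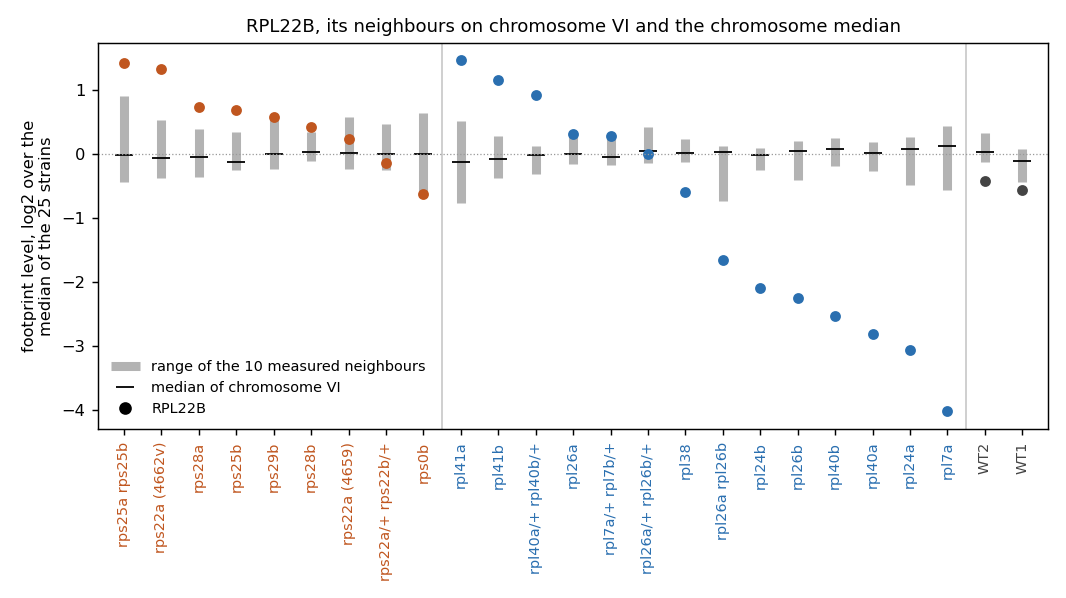
Footprint level of RPL22B (circles, RPS strains orange, RPL strains blue, wild type grey) in each strain as log2 over the median of the 25 strains, with the range of its 10 nearest measured neighbours (grey bars) and the median of chromosome VI (dashes). RPL22B runs from -4.03 in rpl7a to 1.47 in rpl41a, and chromosome medians stay within -0.13 and 0.13.

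Genes with the most like order of levels over the 25 strains were ranked by Spearman correlation among genes outside the mutated families. For RPL22B footprints these were FBA1 (aldolase, 0.98), TDH2 (a glyceraldehyde-3-phosphate dehydrogenase, 0.98), ENO2 (enolase, 0.96), HMF1 (0.95) and YHM2 (a mitochondrial citrate carrier, 0.93). Their ranges were far narrower, from 9958 to 19404 RPKM for FBA1 and from 447 to 2300 RPKM for TDH2. TDH2 and ENO2 have near-identical copies, so their reads are uncertain. The most opposite were FSH1 (a serine hydrolase, -0.95), MCA1 (metacaspase, -0.94) and ERG29 (-0.94). Of 4201 genes, 40 had a correlation of at least 0.8 and 115 one of -0.8 or less, 3.69% in all. The points share the scaling of each library.

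In mRNA the likeness was looser. HMF1 (0.80), the fourth in footprints, came first for RPL22B, followed by CIT2 (peroxisomal citrate synthase, 0.79), PHO84 (phosphate transporter, 0.79), MDM34 (0.79) and HIS7 (histidine synthesis, 0.78), and the most opposite were GSF2 (-0.81), MUD2 (a splicing factor that acts at the branch point, -0.79) and ARB1 (a ribosome assembly ATPase, -0.76). Other genes were most like RPL22A. Its footprints followed RPL34A (0.93), RPL17B (0.92), RPL30 (0.91), RPL33B (0.91) and EGD1 (a subunit of the nascent chain complex, 0.90) and ran opposite to LSC2 (-0.88), EXG1 (-0.88) and ATG42 (-0.87). Its mRNA followed RPL32 (0.81), RPS6A (0.80), SSB1 (a ribosome-bound chaperone, 0.79), RPL12B (0.78) and SUB2 (an RNA helicase, 0.77), with OSH7 (-0.80), PDX1 (-0.77) and POS5 (-0.75) most opposite. The paralogs themselves correlated at 0.62 in footprints and at 0.17 in mRNA.

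RPS and RPL strains were compared across all genes to place the pair among related genes, with limma on log2(RPKM + 1) and Benjamini-Hochberg adjusted p under 0.05. In footprints 228 of 4221 genes passed (5.4%), 50 higher in RPS strains (1.18%) and 178 lower (4.22%), and without the 3 strains with a mutated gene near its usual level 474 passed. In mRNA 490 of 5149 passed (9.52%), 154 higher (2.99%) and 336 lower (6.53%). Of footprint over mRNA ratios, 22 of 4198 passed (0.524%), 19 higher (0.453%) and 3 lower (0.0715%).

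Of 68 other 60S protein genes tested, 19 had higher footprints in RPS strains and none had lower ones, with a median log2 difference of 0.06 against -0.04 over all genes. RPL9B rose by 0.79 ± 0.20 (SE, adjusted p = 0.028), RPL8A by 0.71 ± 0.20 (adjusted p = 0.042), RPL18B by 0.64 ± 0.19 (adjusted p = 0.048) and RPP2B by 0.54 ± 0.13 (adjusted p = 0.022) in RPS over RPL strains. The count of 19 became 2 without rps0b, and between 5 and 11 without any 1 of rps22a (4659), rps29b, rps28b, rps22a/+ rps22b/+, rps28a, rpl7a, rpl24a, rpl24b, rpl40a, rpl40b, rpl26a, rpl26b, rpl26a rpl26b or rpl38. With median-of-ratios scaling it was 9. Over 30 alternatives (4 of scaling or weighting, 25 without 1 strain each and 1 without the 3 strains named above) the call was lost in 3 for RPL9B, 14 for RPL8A, 19 for RPL18B and 1 for RPP2B, and no direction turned. In mRNA 12 were higher and 1 was lower, which became 19 higher without rps25a rps25b, and none lower without rps22a (4662v) or rps22a/+ rps22b/+. In footprints RPL22B (1.58 ± 0.56) had a larger class difference than any 60S gene outside the mutated families named here, on a spread between strains that was also larger. RPL22B was chosen by these same levels, so this comparison is a description and carries no test.

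Of 47 40S protein genes, 5 had higher and 1 had lower footprints in RPS strains, where the rises included RPS27B (0.40 ± 0.10, adjusted p = 0.022), RPS19A (0.37 ± 0.10, adjusted p = 0.041) and RPS26A (0.29 ± 0.08, adjusted p = 0.041). Over the same 30 alternatives the call was lost in 2 for RPS27B, 17 for RPS19A and 14 for RPS26A. The 5 became 0 without rps0b, 1 without rps22a (4659), 2 without rps22a/+ rps22b/+ or rps29b, and 3 without any 1 of rps28b, rpl7a, rpl24a, rpl24b, rpl26b, rpl38, rpl40a or rpl40b. They became 10 without rps25b, rpl41a or rpl41b, 15 without rpl26a/+ rpl26b/+, 20 without rps25a rps25b and 14 without the 3 strains with a mutated gene near its usual level. In mRNA 8 were higher and 5 lower. The 8 became 4 without rps0b, rps22a (4659), rps22a/+ rps22b/+ or rps29b, 5 without rps28b, rpl7a, rpl40a or rpl40b, 14 without rps25a rps25b and 13 after quantile normalization. The falls in mRNA included RPS9A, RPS9B, RPS3 and ASC1 (-0.29 ± 0.06, adjusted p = 0.0049, for RPS3, and -0.26 ± 0.07, adjusted p = 0.025, for ASC1).

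A list of 7 genes whose product is known in budding yeast to act on the splicing of its own or its paralog's transcript did not move as 1 group. RPS9A was lower in RPS strains by a log2 difference of -2.21 ± 0.46 in footprints (adjusted p = 0.013) and -2.65 ± 0.37 in mRNA (adjusted p = 0.00021), and RPS9B mRNA was lower by -0.32 ± 0.06 (adjusted p = 0.0014) with a higher footprint over mRNA ratio (0.49 ± 0.11, adjusted p = 0.039). RPL30 was higher in footprints (0.28 ± 0.08, adjusted p = 0.045) and mRNA (0.26 ± 0.06, adjusted p = 0.011). Footprints of YRA1, an mRNA export factor, were lower (-0.23 ± 0.06, adjusted p = 0.034). Both calls of RPS9A and the mRNA calls of RPS9B and RPL30 held in all 30 alternatives. The footprint call of RPL30 was lost in 18 of 30 (adjusted p of the limma fits 0.012 to 0.096), among them median-of-ratios scaling, quantile normalization and the fit without rps0b. The call of YRA1 was lost in 14 of 30 (0.0028 to 0.129), among them all 3 other scalings, and that of the RPS9B ratio in 17 of 29 (0.013 to 0.086), among them median-of-ratios scaling. RPS14A (0.13 in footprints, 0.09 in mRNA), RPS14B (-0.04 and -0.08) and DBP2, an RNA helicase (0.05 and 0.09), did not pass the test.

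Of 72 spliceosome genes tested in footprints none passed with limma, nor with voom, with 4 at an unadjusted p under 0.05. Without the 3 strains with a mutated gene near its usual level, CWC21 (-0.40, adjusted p = 0.024) and LSM6 (-0.20, adjusted p = 0.041) were lower in RPS strains, both named after their values were seen. In mRNA 2 of 78 passed, SMX2 (-0.65 ± 0.16, adjusted p = 0.010) and SMD1 (-0.27 ± 0.08, adjusted p = 0.032), both lower in RPS strains and both parts of the Sm ring of splicing particles. The call of SMD1 was lost in 11 of 30 alternatives and that of SMX2 in none. Of 19 genes of RNA surveillance and decay, 1 passed in footprints (EDC2, a decapping activator, -0.63 ± 0.18, adjusted p = 0.045) and 3 in mRNA, where EDC1 was lower (-0.54 ± 0.12, adjusted p = 0.0078) and the helicases MTR4 (0.28 ± 0.08, adjusted p = 0.033) and NAM7 (0.19 ± 0.05, adjusted p = 0.026) were higher. Of regulators of ribosomal protein gene transcription, CKA2, a casein kinase 2 subunit, rose in footprints (1 of 17, 0.31 ± 0.08, adjusted p = 0.028), and SCH9 (0.23 ± 0.07, adjusted p = 0.024) and UTP22 (0.22 ± 0.05, adjusted p = 0.0061) rose in mRNA (2 of 19). The calls of EDC1 and UTP22 held in all 30 alternatives, and the others were lost in 3 (SCH9), 4 (NAM7), 5 (CKA2), 8 (MTR4) and 16 (EDC2). In footprints these last 3 lists had 0 of 72, 1 of 19 and 1 of 17 called, beside 5.4% of all genes. In mRNA they had 2 of 78, 3 of 19 and 2 of 19, beside 9.52%. Whether any of these lists differs from all genes was not tested.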

How the data were processed

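Reads were made into tables with CASAVA, bcl2fastq 2.17 and Bowtie2, as far as the submitters' processing notes name tools. Build, annotation and the handling of reads that match several genes are not known from these sources. The authors deposited a table for each assay under the heading RPKM, but the deposited values behaved as a signal equal to reads times a constant per library times the coding length less 60 nt. The tests had been planned for RPKM, and this is the departure from that plan. Whole reads were recovered within 0.03 reads for 5090 of 5812 open reading frames at their annotated length (87.6%), against 23 at another gene's length. For 938 more, both RPL22 genes included, the values themselves gave the length. A further 351 were at 0 throughout, and 300 without a length held 0.209% of the footprint and 0.426% of the mRNA signal. An unnamed line of totals (1 per table) was left out. RPKM was recomputed from reads and coding length less 60 nt.

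All genes averaging 10 RPKM or more entered 1 limma fit of the 3 classes (limma 3.58.1, R 4.3.3, mean-variance trend, two-sided) on log2(RPKM + 1). Fold changes are on that scale, which understates changes of low genes. P-values measure the spread between strains of different genotype, some of which share a mutated gene. Footprint over mRNA was the difference within a strain, paired by strain number. Deviations of a strain's footprints and mRNA correlated at 0.24 to 0.86 over 2023 genes, and at -0.18 in rpl26a/+ rpl26b/+. The pairing by strain gave the highest correlation in 18 of 25 strains. It ranked 2nd in rpl7a, rpl24a, rpl24b and rpl40b, 3rd in rpl41b, 6th in rps25b and 17th in rpl26a/+ rpl26b/+. Between the wild-type libraries, chi-square per degree of freedom was 10.7 in footprints and 3.41 in mRNA, above counting error, and whether they came from separate cultures is not stated. The labels give no batch. Counting intervals of levels are exact Poisson at 95%, and those of footprint over mRNA are exact binomial at 95%. All cover counting error only. The fit was tested on simulated data.

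The 2 genes, the 6 gene lists, the tests and the alternatives were chosen with earlier results of these data known. Named were the 5 genes most and the 3 least correlated with each member per assay, up to 4 called members per list, every gene of the list of 7, chromosomal neighbours, and the RPS9, RPL7 and RPS22 pairs. Of the open reading frames, 5994 matched the R64 gene table, used for names, chromosome, order and coding length.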

Additional observations from a re-analysis of the deposited data

How the results depend on the processing

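Class differences of RPL22A and RPL22B kept their direction and moved by less than the SD between strains under all alternatives run: pseudocounts of 0.1 and 5, median-of-ratios scaling, totals without ribosomal protein genes, quantile normalization, voom on recovered reads (footprints and mRNA only), leaving out each strain and leaving out the 3 strains with a mutated gene near its usual level. That SD, taken within classes, was 1.43 for RPL22B footprints, 0.42 for its mRNA and 1.13 for its ratio. Beside differences of 1.58, 0.27 and 1.31 this is a wide bar, which large changes would also have met. Without each strain in turn, RPS minus RPL on the log2 scale was 1.35 to 1.78 for RPL22B footprints, 0.20 to 0.33 for its mRNA and 1.11 to 1.44 for its ratio, and 0.16 to 0.20, 0.05 to 0.11 and 0.09 to 0.13 for RPL22A. RPL22B in rpl7a was 7.76% of the wild-type mean (7.37% and 8.21% against WT2 and WT1 alone, 6.87% with median-of-ratios scaling) and 5.51% of the median strain. The 50.4-fold range became 62.1-fold with median-of-ratios scaling and 53.0-fold with totals without ribosomal protein genes.

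Counts of genes past the test over all genes were less stable. Without each strain in turn they were 53 (without rps0b) to 608 (without rps25a rps25b) for footprints, 320 (without rps22a/+ rps22b/+) to 850 (without rps25a rps25b) for mRNA, and 0 to 69 (without rps25b) for footprint over mRNA. Without the 3 strains with a mutated gene near its usual level, the counts were 474 for footprints and 88 for footprint over mRNA. The footprint over mRNA count was 22 with the strain as block, and 3 with no replicate block, where the RPL22B difference stayed at 1.31 with an SE of 0.61. It was 8 with median-of-ratios scaling, 49 with totals without ribosomal protein genes and 58 at a mean of at least 50 RPKM; the cause was not tested. The split of footprint calls, 50 higher and 178 lower in RPS strains, became 83 higher and 124 lower under median-of-ratios scaling, 68 and 107 on totals without ribosomal protein genes, and 120 and 119 after quantile normalization. That of mRNA calls, 154 and 336, became 259 and 310, 173 and 319, and 332 and 283 in the same order. Voom was not run for footprint over mRNA, and a planned quasi-likelihood count test was not run, since the deposited unit is a signal. Depth limits RPL22B most in the lowest strains (14 footprint reads in rpl7a) and in mRNA (42 to 170 reads).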
